A study of Mus musculus with 8 samples.

Results

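Mouse limb bud cells that had received an adenovirus for Cre recombinase (AdCre) were compared with cells of the same floxed strain that had received an adenovirus for LacZ (AdLacZ). The comparison takes the 3 arrays titled AdeCre treated and the 3 titled AdeLacZ treated, 6 of the 8 Illumina bead arrays of the series, across all 25697 probes of the deposited value table. The cells were primary cells of the forelimb and hindlimb buds at embryonic day 11.5, and the strain is labelled 129XB6-Sox4fl/fl11fl/fl, so every group carried floxed alleles of Sox4 and Sox11. After 6 h in culture the cells were kept for 24 h with AdCre (n = 3, labelled as mutant) or with AdLacZ (n = 3, labelled as control), and a further group was left untreated (n = 2). The 2 untreated arrays entered the fit only through the shared estimate of the spread. Cells lacking floxed alleles were not given AdCre in any group, and what Cre does by itself and what the deletion does cannot be told apart. Nothing states that replicates were separate cultures or litters, and the p values then measure only the spread between these arrays.

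Cre recombinase cuts out DNA between its target sites, here part of the floxed genes. Sox4, Sox11 and Sox12 form the SoxC group of transcription factors, which bind DNA through a high mobility group domain and mostly activate transcription. They are expressed in immature neurons and in embryonic mesenchyme, and in neuronal precursors they are known to activate cytoskeletal genes such as Tubb3 and Dcx. The title of the series concerns the survival of neural and mesenchymal progenitors.

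Levels are given as the deposited background-subtracted intensities, and changes as AdCre minus AdLacZ on the log2 scale after a background correction that shrinks the changes of dim probes. A probe was tested when it lay above a detection floor of 8.87 to 8.93 intensity units on 2 or more of the 8 arrays. This filter kept 15944 probes, standing for 10772 named genes. It passed at an adjusted p under 0.05 in limma, taken over all tested probes. In all 802 probes passed (5.03%), 253 higher (1.59%) and 549 lower (3.44%) in AdCre cells. Counted by the brightest probe of each gene, 496 genes passed (4.6%), of which 196 were higher (1.82%) and 300 lower (2.78%). Most of these changes were small, since 95.8% of the 496 genes moved by less than 1 on the log2 scale, and the median change was 0.52 among higher and -0.57 among lower genes. Over all tested genes the median was 0.02. For 29% of all tested genes the 3 AdCre arrays lay entirely above or below the 3 AdLacZ arrays, so such separation alone marks no gene. All 802 probes that passed were separated in this way, so separation adds nothing to a call.

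**Figure D1:**
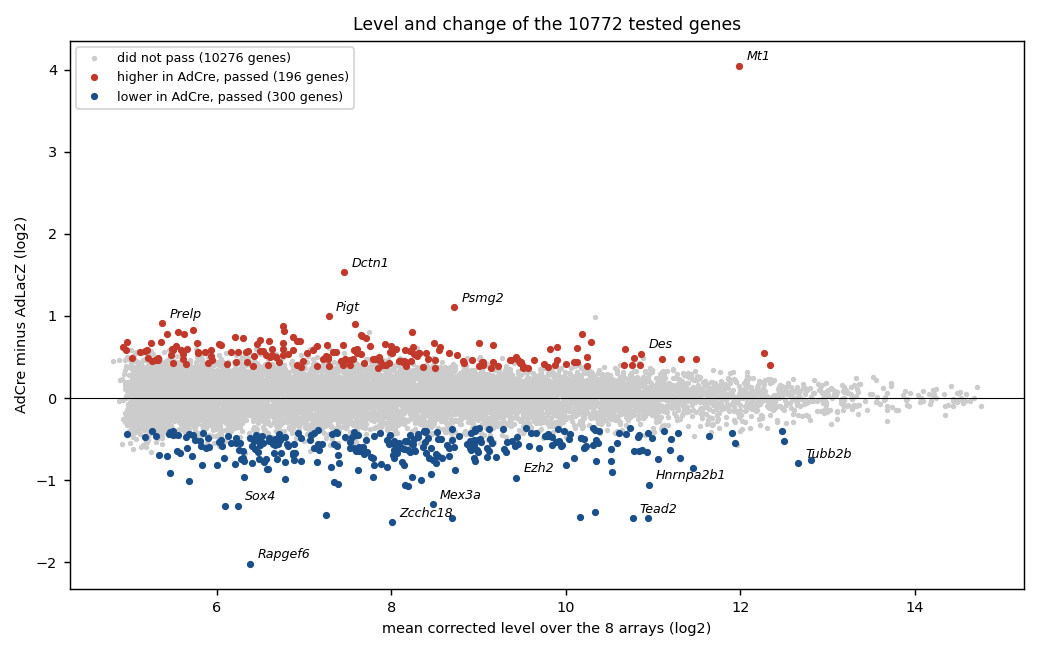
Each point is a gene, with its mean corrected level over the 8 arrays (log2) on the x axis and its AdCre minus AdLacZ change (log2) on the y axis. The 196 higher and 300 lower genes lie at all levels, and the Mt1 probe at 4.05 stands far above every other rise.

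In the 8 fits that left out 1 array each, 101 of the 496 genes passed every time (24 higher and 77 lower, 20.4%), and these are called steady below. Of 145 named calls, 74 ended without AdLacZ replicate 2 and 69 without AdCre replicate 2. A further 67 ended without AdLacZ replicate 3, 59 without AdCre replicate 1, 57 without AdCre replicate 3 and 56 without AdLacZ replicate 1. Leaving out either untreated array ended 14, since the other then adds nothing to the spread. All named calls kept their sign in these fits, which was fixed in advance, since no called probe had overlapping groups. In 240 of the 300 lower genes and 144 of the 196 higher genes the untreated mean lay nearer to the AdLacZ mean than to the AdCre mean. In the other 60 and 52 genes it lay nearer to AdCre. The share over all tested genes is not given here, so these counts mark nothing particular to the called genes. Over all tested probes each untreated array correlated more with every AdLacZ array than with any AdCre array. For untreated replicate 1 the values were 0.9821 to 0.9832 against 0.9786 to 0.9794.

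Sox4, the floxed gene with a named probe, read 10.9, 11.8 and 12.9 intensity units in AdCre cells, against 66.5, 75.9 and 78.1 in AdLacZ cells and 68.5 and 111 in untreated cells. All AdCre arrays lay far below all AdLacZ arrays and close to the detection floor. The change was -1.31 ± 0.13 (SE, adjusted p = 0.00114) and steady. It was -2.63 without the background correction and -0.86 with its offset at 50, and whether the probe lies in the deleted part was not tested. Sox12, whose gene was not floxed, read 64.2, 62.3 and 46.2 in AdCre cells, against 76.3, 68.8 and 73.2 in AdLacZ cells. Its groups did not overlap, but the change of -0.24 ± 0.11 did not pass (adjusted p = 0.226). Sox11 was not analysed here. Among the 9 tested Sox genes only Sox4 passed, while Sox9, the regulator of cartilage formation, stood at -0.01 ± 0.12 (adjusted p = 0.976, named after its values were seen).

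Tead2 is a transcription factor through which YAP and TAZ, the effectors of Hippo signalling, reach DNA. It read 945, 915 and 898 in AdCre cells, against 2682, 2782 and 2329.7 in AdLacZ cells and 2123 and 2528 in untreated cells. Every AdCre array lay below every other array, and the fall of 1.47 ± 0.11 on the log2 scale (adjusted p = 1.91e-04) was steady. Vgll4, a cofactor that competes with YAP for TEAD factors, fell as well (-0.55 ± 0.11, adjusted p = 0.0174), but its untreated arrays at 189.6 and 214 lay near its AdCre arrays at 199, 185 and 168 rather than its AdLacZ arrays at 270.2, 269 and 313. The call of Vgll4 ended without AdCre replicate 2 or 3 or AdLacZ replicate 2 or 3 (adjusted p up to 0.0699). The other 14 tested genes of TEAD factors and YAP partners did not pass, and the median of the 16 was -0.03. Yap1 itself read 469, 496 and 594 in AdCre cells, against 626, 667 and 592 in AdLacZ cells (-0.27 ± 0.12, adjusted p = 0.223, named after its values were seen).

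The windows from 250 bases before to 50 bases after the annotated start are shown for Tead2 and Mcm7, as strong falls of a transcription factor and a replication gene, and for Mt1, as the largest rise. They were taken from RefSeq on GRCm38.p6, and capitals mark letters that equal a searched motif on either strand. For Tead2 (chr7:45215542-45215841, plus strand) the capitals mark the SOX core ACAAAG, which starts 28 bases before the gene start. For Mcm7 (chr5:138171834-138172133, minus strand) they mark the E2F site TTTCCCGC, read here on the other strand and starting 165 bases before the gene start. A metal response core at 185 bases before the start is not in capitals. A second Mcm7 window on file (chr5:138171217-138171516), not printed, holds no TTTCCCGC but holds ACAAAG at 226 bases before its start. For Mt1 (chr8:94178839-94179138, plus strand) they mark 3 copies of the metal response core TGCNCNC.
Tead2: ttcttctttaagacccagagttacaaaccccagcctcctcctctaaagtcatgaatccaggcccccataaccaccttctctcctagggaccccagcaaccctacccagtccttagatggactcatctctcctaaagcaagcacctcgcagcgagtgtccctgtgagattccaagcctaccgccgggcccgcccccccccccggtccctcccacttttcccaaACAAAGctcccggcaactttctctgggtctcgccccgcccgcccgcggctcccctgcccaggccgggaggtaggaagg
Mcm7: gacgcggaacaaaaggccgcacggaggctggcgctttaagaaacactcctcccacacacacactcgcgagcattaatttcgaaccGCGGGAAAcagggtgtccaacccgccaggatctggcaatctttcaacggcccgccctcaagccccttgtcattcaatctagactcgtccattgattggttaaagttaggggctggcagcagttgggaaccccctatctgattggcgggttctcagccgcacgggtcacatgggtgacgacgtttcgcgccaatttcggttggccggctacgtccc
Mt1: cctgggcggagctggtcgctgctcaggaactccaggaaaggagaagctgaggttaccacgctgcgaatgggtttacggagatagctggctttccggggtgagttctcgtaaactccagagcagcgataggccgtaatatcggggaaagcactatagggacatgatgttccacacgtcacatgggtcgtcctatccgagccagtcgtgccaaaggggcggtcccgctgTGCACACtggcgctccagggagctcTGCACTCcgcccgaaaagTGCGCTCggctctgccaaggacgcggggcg
A window of this kind was on file for 236 of the 300 lower genes and 152 of the 196 higher genes. ACAAAG stood in 24.6% of the windows of lower genes and 9.21% of those of higher genes, against 13.8% over all tested genes and 18.7% over all 32851 windows in the table. Among those of the 10 largest falls that had a window, Tead2, Hbb-y, Efna4 and Zfp184 held ACAAAG. Rapgef6, Zcchc18, Igsf9, Hba-a1 and Sox4 did not hold it in the first window listed. The other SOX core searched, AACAAT, stood in 6.36% of lower, 5.26% of higher and 6.3% of tested genes (10.7% of all windows). TTTCCCGC was held by 3.81% of lower, 1.97% of higher and 1.92% of tested genes (1.07% of all windows). TGCNCNC was common, in 61% of lower, 57.9% of higher and 59.5% of tested genes (51% of all windows), and the TEAD site GGAATG stood in 13.1%, 14.5% and 12% (14.7% of all windows). These shares describe letters in short windows, not binding.

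Cytoskeletal and RNA-binding genes of the kind used by young neurons were lower in AdCre cells more often than the genes of any other list with at least 20 tested members. Of 28 tested genes 9 fell and 0 rose (32.1% lower, against 2.78% of all genes), 23 of the 28 changes were negative, and the median was -0.28. Mex3a, Igsf9 and Ctxn1 had been put on this list with their falls known, and without them 6 of 25 fell (24%, median -0.21). The list and its other members were also chosen with earlier results of these data known, so this share is no independent support. Tubb2b, a beta tubulin of migrating neurons, read 4418, 4455 and 4773 in AdCre cells, against 7616, 7943 and 8092 in AdLacZ cells and 8295 and 8013 in untreated cells. Its 5 probes all fell, with log2 changes between -1.09 and -0.73 (brightest probe -0.79 ± 0.09, adjusted p = 0.00238). Mex3a, an RNA-binding ubiquitin ligase, read 178, 174 and 184 in AdCre cells, against 505, 510.3 and 426 in AdLacZ cells (-1.29 ± 0.11, adjusted p = 4.42e-04). Igsf9, an adhesion molecule of dendrites, read 237, 202 and 203 in AdCre cells, against 551, 713 and 658 in AdLacZ cells (-1.46 ± 0.17, adjusted p = 0.00238). Both genes were separated from AdLacZ on every array, as all called probes were.

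The collapsin response genes of the same list, whose proteins link guidance signals to microtubules, moved the same way. Dpysl4 read 49.1, 42 and 34.7 in AdCre cells, against 122, 105 and 107 in AdLacZ cells (-0.98 ± 0.11, adjusted p = 0.00219). Crmp1, named after its values were seen, read 112, 113 and 94.9, against 259, 186 and 220.0 in AdLacZ cells (-0.87 ± 0.12, adjusted p = 0.00526), and a dimmer Crmp1 probe did not pass (-0.20). Ctxn1 fell by 1.07 ± 0.10 (adjusted p = 0.00102). These, Tubb2b, Mex3a and Igsf9 were steady. The microtubule regulators Stmn2 (-0.81 ± 0.15, adjusted p = 0.0174), Dcx (-0.50 ± 0.11, adjusted p = 0.0338) and Stmn1 (-0.64 ± 0.16, adjusted p = 0.0481) fell but passed in 4, 3 and 1 of the 8 fits. Dcx and Stmn1 are named after their values were seen, and the untreated arrays of Dcx, at 246 and 217, lay with the AdCre arrays at 209, 251 and 269.6. Stmn2 read 7.17, 19.7 and 13.8 in AdCre cells, near the floor. Other genes of this kind did not pass. Tubb3 was near background in both groups (0.10 ± 0.15, adjusted p = 0.755) and Map2 stood at 0.04 ± 0.09 (adjusted p = 0.842), both named after their values were seen. Markers of neurons and Schwann cells did not pass in any of 7 tested genes, their summed intensity was 445 to 474 in AdCre cells, against 433 to 498 in AdLacZ cells, and Nefl, Pou4f1, Snap25 and Tlx3 were not above the floor on any of the 6 arrays.

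**Figure D2:**
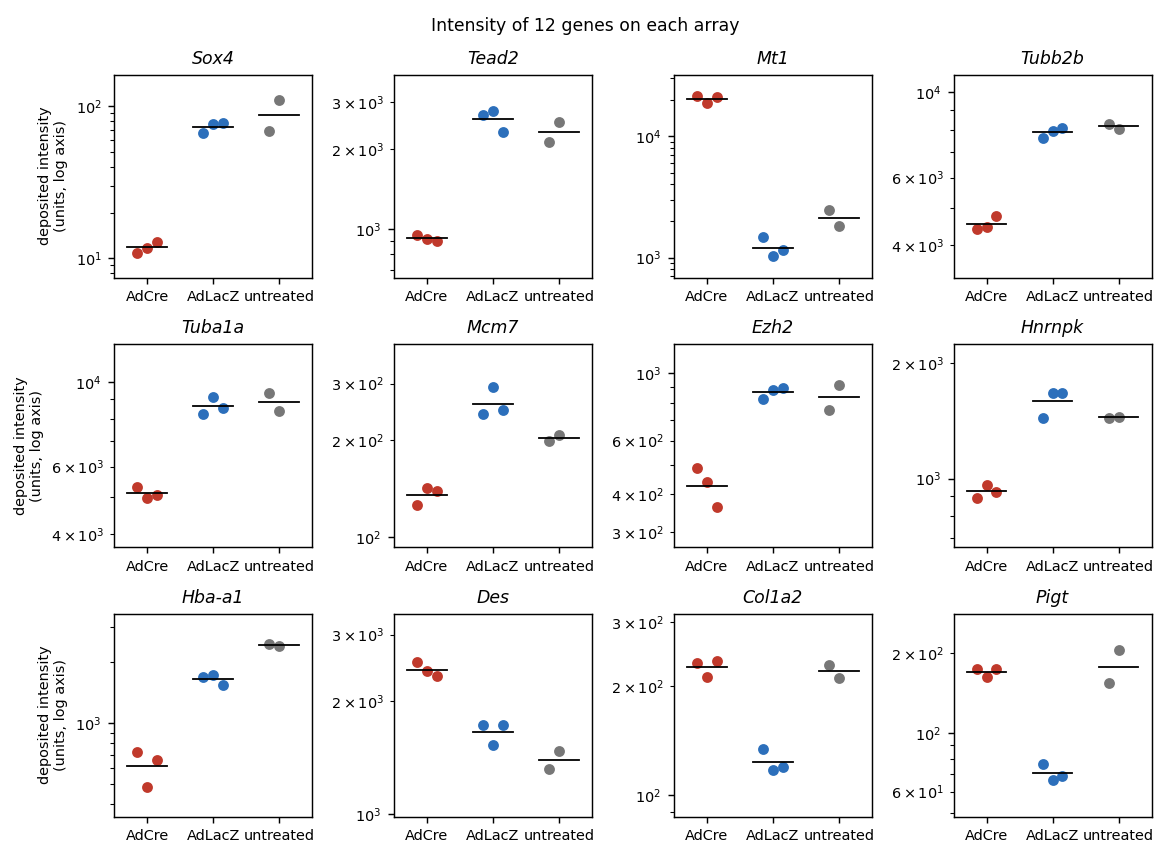
Deposited intensity (log axis) of 12 genes on each array, with 1 point per array and a line at the geometric mean, for AdCre, AdLacZ and untreated cells. In each panel the 3 AdCre points lie clear of the 3 AdLacZ points, as they do for every called probe. In Col1a2 and Pigt the untreated points lie with AdCre.

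The wider set of 64 tubulin and microtubule genes held 6 falls and 1 rise (9.38% lower and 1.56% higher) around a median of 0.02. Of these falls, Tubb2b, Stmn2, Dcx and Stmn1 were also counted in the neuronal type list above. Tuba1a, an alpha tubulin abundant in embryonic tissue, read 5322, 4954 and 5044 in AdCre cells, against 8258, 9124 and 8527 in AdLacZ cells and 9365 and 8414 in untreated cells. Its fall of 0.75 ± 0.10 (adjusted p = 0.00331) was steady. Marcksl1, an actin-binding relative of MARCKS that is abundant in the developing nervous system, fell on all 4 of its probes, with log2 changes between -1.04 and -0.64. Its brightest probe read 1537, 1696 and 1970.0 in AdCre cells, against 2625, 2704 and 2763 in AdLacZ cells (adjusted p = 0.0119). The rise was that of Dctn1, a dynactin subunit (1.53 ± 0.33, adjusted p = 0.0277), with 247, 259 and 216 in AdCre cells, against 142, 19.8 and 65.7 in AdLacZ cells and 206 and 214 in untreated cells. Its AdLacZ arrays were the scattered ones, and the call ended without any AdCre array or AdLacZ replicate 3 (adjusted p up to 0.0816). Among 23 kinesins, the motors that walk along microtubules, Kif3c (-0.50 ± 0.09), Kif23 (-0.41 ± 0.10) and Kif5c (-0.50 ± 0.12) fell and 0 rose (13% lower, median -0.12). Their adjusted p values were 0.0172, 0.0369 and 0.0424, and none was steady (up to 0.139 with an array left out).

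Some genes that start and copy DNA were lower, while no gene of the DNA repair and Fanconi list passed. Of 38 tested factors of replication origins and forks 4 fell and 0 rose (10.5% lower), 29 of 38 changes were negative, and the median was -0.12. Mcm7, a subunit of the replicative helicase, read 126, 142 and 139 in AdCre cells, against 240.3, 293 and 248 in AdLacZ cells and 198 and 208 in untreated cells (-0.81 ± 0.10, adjusted p = 0.00331). Mcm3 of the same complex read 249, 257 and 283 in AdCre cells, against 440.1, 454 and 471 in AdLacZ cells (-0.73 ± 0.09, adjusted p = 0.00331). Both were steady. Mcm5 (-0.43 ± 0.10, adjusted p = 0.0373) and the histone chaperone subunit Chaf1b (-0.57 ± 0.12, adjusted p = 0.028) fell too, but with untreated arrays nearer to AdCre. Their calls passed in 2 and 3 of the 8 fits (adjusted p up to 0.13 and 0.0863). Nucleotide synthesis gave Adss (-0.61 ± 0.13) and the ribonucleotide reductase subunit Rrm1 (-0.37 ± 0.09) as falls among 20 genes. Neither was steady, with adjusted p values of 0.0276 and 0.0439 and up to 0.102 and 0.13 with an array left out.

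In the cell cycle proper the changes went both ways. Of 35 cyclins, CDKs and CDK inhibitors, Ccne2, the cyclin E of S phase entry, fell (-0.68 ± 0.11, adjusted p = 0.00917), with 109.9, 143 and 144 in AdCre cells, against 228, 232 and 228 in AdLacZ cells and 169.7 and 185 in untreated cells. Ccng2, a cyclin linked to cell cycle arrest, fell by 0.88 ± 0.09 (adjusted p = 0.00178), with 252, 270.1 and 270.1 in AdCre cells, against 546, 503 and 483 in AdLacZ cells. Ccnk, a partner of transcriptional CDKs, rose (0.78 ± 0.13, adjusted p = 0.0107), but 2 of its 3 AdLacZ arrays lay below the floor and its untreated arrays, at 27.1 and 40.5, lay with the AdCre arrays at 25.7, 30.6 and 32.6. All of these were steady. Among 22 mitosis and spindle genes the condensin subunit Ncapd2 fell (-0.63 ± 0.10, adjusted p = 0.00917, steady) and 0 rose. None of the 51 genes on the DNA repair and Fanconi list, which does not hold Xpc, and none of 11 E2F and DP factors passed in limma. Of 28 p53 target genes 2 rose and 2 fell. Ephx1, an epoxide hydrolase (0.60 ± 0.09, adjusted p = 0.00889, steady), and Dcxr (0.45 ± 0.10, adjusted p = 0.0276) rose. Trp53inp1 (-0.57 ± 0.12, adjusted p = 0.0244) and the DNA damage sensor Xpc (-0.56 ± 0.13, adjusted p = 0.0394) fell. The calls of these last 3 were not steady (adjusted p up to 0.118).

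Single chromatin genes passed, in lists whose share of calls was mostly close to that of all genes. Ezh2, the methyltransferase of Polycomb repressive complex 2, read 488, 437 and 364 in AdCre cells, against 819, 881 and 895 in AdLacZ cells and 758 and 916 in untreated cells. Its fall was steady (-0.97 ± 0.12, adjusted p = 0.00331), with -0.18 on its other probe and -0.58 with both averaged (adjusted p = 0.0288). Ehmt1, another histone methyltransferase, fell by 0.48 ± 0.12 (adjusted p = 0.0447), a call that held in 1 of the 8 fits (up to 0.143). These were the calls among 56 histone deacetylases, methylases and demethylases, with 0 rises and a median of -0.04. Of 28 SWI/SNF and CHD remodellers 3 fell and 0 rose (10.7% lower, median -0.04). Smarce1, a DNA-binding subunit of the BAF complex, read 836, 934 and 929 in AdCre cells, against 1334, 1482 and 1317 in AdLacZ cells (-0.60 ± 0.10, adjusted p = 0.0111), and its other probe passed too. Smarcc1, a scaffold subunit of the same complex, read 193, 139 and 179.9 in AdCre cells, against 307, 381 and 280.4 in AdLacZ cells (-0.81 ± 0.14, adjusted p = 0.0137). Without AdLacZ replicate 2 both calls ended (adjusted p = 0.0525 and 0.0563). Smarcad1 fell by 0.54 ± 0.11 (adjusted p = 0.0202, up to 0.0785). Of 27 Mediator subunits Med22 fell on both probes (-0.48 ± 0.09, adjusted p = 0.0197, up to 0.0699), and none of 46 RNA polymerase and TFII subunits passed.

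Zinc finger genes of the Zfp series, most of them without a known function, formed the list with the most tested members, 220. It also held the most falls, with 16 lower and 5 higher (median -0.03). The shares were 7.27% lower and 2.27% higher, against 2.78% and 1.82% of all genes. Zfp184 fell (-1.31 ± 0.15, adjusted p = 0.00238), with 7.08, 20.4 and 4.46 in AdCre cells, against 65.5, 60.9 and 81.8 in AdLacZ cells, so 2 of its 3 AdCre arrays were below the floor and the size depends on the background correction (-2.55 without it and -0.84 with the offset of 50). Zfp637 (-0.66 ± 0.10, adjusted p = 0.00683) and Zfp553 (-0.78 ± 0.12, adjusted p = 0.00854) fell and Zfp688 rose (0.60 ± 0.10, adjusted p = 0.0127). The first 3 were steady, and Zfp688 ended without AdLacZ replicate 2 (adjusted p = 0.0563). With 1 array left out the number of lower members ran between 3 and 13 and that of higher members between 0 and 4.

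Several genes of RNA-binding proteins that control splicing were lower, while no cytosolic ribosomal protein gene passed. Of 63 hnRNP, SR and spliceosome genes 7 fell and 0 rose (11.1% lower), 43 of 63 changes were negative, and the median was -0.08. Hnrnpk, which binds C-rich RNA, read 888, 965 and 924 in AdCre cells, against 1441, 1667 and 1670.0 in AdLacZ cells and 1438 and 1449 in untreated cells. Its fall of 0.76 ± 0.10 (adjusted p = 0.00343) was steady, as was that of Hnrnph3 (-0.74 ± 0.11, adjusted p = 0.00639). Hnrnpa1 read 1264, 1449 and 1208 in AdCre cells, against 2007, 2264 and 1883 in AdLacZ cells (-0.64 ± 0.11, adjusted p = 0.0138), and ended without AdLacZ replicate 2 (adjusted p = 0.0589) and with its 2 probes averaged (-0.45, adjusted p = 0.0585). Hnrnpa2b1 fell on its brightest probe (-1.06 ± 0.18, adjusted p = 0.0127), but its other probe went the other way (0.51, adjusted p = 0.0853). With its probes averaged it did not pass (-0.27, adjusted p = 0.297). With an array left out, 3 to 7 members of this group were lower. Khdrbs1, which encodes the signalling-regulated splicing factor Sam68, fell on both probes, and the brighter one read 671, 704 and 658 in AdCre cells, against 1137, 1268 and 1239 in AdLacZ cells (-0.81 ± 0.10, adjusted p = 0.00238, steady). Of 37 DEAD and DEAH helicases Ddx5 (-0.73 ± 0.09, adjusted p = 0.00372, steady) and Dhx9 (-0.81 ± 0.15, adjusted p = 0.0169) fell and 0 rose. Dhx9 ended without AdCre replicate 1 (adjusted p = 0.0545) and with its 2 probes averaged (-0.44, adjusted p = 0.0684), and its untreated arrays, at 188 and 172, lay nearer to AdCre at 135, 159 and 172 than to AdLacZ at 248, 383 and 263.

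Among 44 translation initiation and elongation factors 3 fell and 0 rose (6.82% lower, median -0.02). Eif4g2, a scaffold for cap-independent initiation, read 741, 785 and 700.1 in AdCre cells, against 1258, 1355 and 1138 in AdLacZ cells and 1436 and 1463 in untreated cells (-0.73 ± 0.10, adjusted p = 0.00524). Eif4e3, a cap-binding protein, fell on all 3 probes (brightest -0.65 ± 0.10, adjusted p = 0.00917). Both were steady, although Eif4g2 did not pass with its 2 probes averaged. Eif4b fell by 0.79 ± 0.14 (adjusted p = 0.0143) and ended without AdCre replicate 2 or AdLacZ replicate 2 (up to 0.0589). None of 58 cytosolic ribosomal proteins (median 0.04), 43 nucleolus and ribosome assembly genes (median 0.09) or 33 tRNA synthetases (median -0.0008) passed in limma.

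The lists of folding in the endoplasmic reticulum, of heat shock proteins and of COPI, COPII and Sec proteins had positive medians, with few calls. The median was 0.15 over 23 genes of folding in the endoplasmic reticulum, where 18 changes were positive yet the only call was a fall, that of the disulfide isomerase gene Pdia4 (-0.37 ± 0.09, adjusted p = 0.0487). Pdia4 passed in 0 of the 8 fits. Over 76 heat shock and DNAJ genes the median was 0.11, with 55 positive changes and 3 rises (3.95%, against 1.82% of all genes). These were Dnajb4 (0.50 ± 0.11), Hspb8, a small heat shock protein of muscle (0.46 ± 0.11), and Hspa2 (0.41 ± 0.10), at adjusted p values of 0.0278, 0.0377 and 0.0455 that each reached 0.101 to 0.15 with an array left out. Of 62 COPI, COPII and Sec genes 3 rose and 2 fell. Sec11c, of the signal peptidase (0.62 ± 0.12, adjusted p = 0.0182), and the cargo receptor Tmed10 (0.51 ± 0.10, adjusted p = 0.0207) rose, and Srp54a, of the signal recognition particle (-0.61 ± 0.11, adjusted p = 0.0151), and the coat protein gene Sec23a (-0.57 ± 0.11, adjusted p = 0.0182) fell. These 4 calls passed in 4 or 5 of the 8 fits (up to 0.074).

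In GPI anchor and N-glycan assembly 3 of 53 genes rose and 0 fell (5.66% higher). Pigt, part of the transamidase that attaches GPI anchors, read 174, 162 and 175 in AdCre cells, against 76.2, 66.3 and 68.8 in AdLacZ cells and 154 and 205 in untreated cells (0.998 ± 0.11, adjusted p = 0.002, steady). The AdLacZ arrays of Pigt were the low ones. The mannose donor gene Gmppb read 117, 117 and 147 in AdCre cells, against 58.1, 63.9 and 45.7 in AdLacZ cells and 68.3 and 52.2 in untreated cells (0.87 ± 0.13, adjusted p = 0.00564, steady). Alg11 rose by 0.52 ± 0.13 (adjusted p = 0.0487) and passed in 0 of the 8 fits. Of 42 proteasome genes the assembly factor gene Psmg2 rose (1.10 ± 0.14, adjusted p = 0.00338, steady, but 0.59 with its 2 probes averaged), with 582, 496 and 557 in AdCre cells, against 224, 271 and 220.5 in AdLacZ cells and 599.8 and 411 in untreated cells. Among 73 E2 enzymes, F-box proteins and cullins 4 fell and 0 rose, with Ube2z (-0.64 ± 0.13), Fbxl22 (-0.60 ± 0.12), Ube2g2 (-0.55 ± 0.11) and Fbxo21 (-0.46 ± 0.11). None of these 4 was steady (adjusted p up to 0.124). Of 36 USP deubiquitinases Usp3 fell on both probes (brighter -0.67 ± 0.10, adjusted p = 0.00733, steady) and Usp22 fell (-0.39 ± 0.10, adjusted p = 0.0469), the last in 0 of the 8 fits. Of 37 nuclear pore and import genes Tnpo3 was not above the floor on any AdLacZ array and rose at least 1.33-fold (adjusted p = 0.023, up to 0.0741).

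The probe for Mt1, which encodes a metal-binding metallothionein, gave the largest change of the whole comparison. Its sequence was not used here, and whether it also reads other transcripts, those of the viruses included, was not tested. It read 21282, 18799.8 and 21016 in AdCre cells, against 1471, 1031 and 1142 in AdLacZ cells and 2473 and 1814 in untreated cells. The AdCre arrays lay far above every other array, and the rise was 4.05 ± 0.15 (adjusted p = 6.89e-07, steady). Other genes tied to metal handling did not pass, and they are named after their values were seen. Mt2 lay near the floor, with 21.3, 6.95 and 13.4 in AdCre cells, against 13.3, 16.1 and 5.33 in AdLacZ cells (0.08 ± 0.14, adjusted p = 0.811). The zinc exporter gene Slc30a1 stood at 0.24 ± 0.13 (adjusted p = 0.313) and Mtf1, the metal-sensing transcription factor, at -0.08 ± 0.12 (adjusted p = 0.76). Mt1 was the only call among 32 metallothioneins and metal transporters (3.12%).

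Mitochondrial lists had medians slightly above that of all genes and few calls. The median was 0.09 over 69 mitochondrial ribosomal proteins, where Mrpl17 rose (0.47 ± 0.10, adjusted p = 0.0211) and Mrps5 fell (-0.41 ± 0.10, adjusted p = 0.0377). It was 0.07 over 70 respiratory chain subunits, where the complex I subunits Ndufv3 (0.41 ± 0.09, adjusted p = 0.0328) and Ndufb2 (0.36 ± 0.09, adjusted p = 0.0481) rose and 0 fell. None of these 4 was steady (up to 0.133). In the TCA cycle and fatty acid oxidation list of 34 genes the median was 0.12. Etfb, the electron transfer flavoprotein subunit, read 1482, 1501 and 1608 in AdCre cells, against 919.5, 879 and 830.2 in AdLacZ cells and 1079 and 1083 in untreated cells (0.78 ± 0.09, adjusted p = 0.00241, steady). Pdhb, a subunit of pyruvate dehydrogenase, read 435, 429 and 426 in AdCre cells, against 678, 754 and 736 in AdLacZ cells (-0.71 ± 0.10, adjusted p = 0.00524, steady, but not with its probes averaged). Idh2 fell by 0.43 ± 0.10 (adjusted p = 0.0413, up to 0.134). None of 30 mitochondrial import, 17 peroxisome, 43 lysosomal or 20 cholesterol genes passed in limma.

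Other metabolic calls were scattered. Of 186 solute carriers 5 rose and 4 fell (2.69% and 2.15%). Slc16a6, of the monocarboxylate transporter family, rose most (0.82 ± 0.10, adjusted p = 0.00286, steady) and Slc29a4, a monoamine transporter, fell most (-1.05 ± 0.11, adjusted p = 0.00167, steady). Slc50a1, a sugar transporter, rose (0.56 ± 0.10, adjusted p = 0.0165) and the urea transporter gene Slc14a1 fell (-0.71 ± 0.15, adjusted p = 0.023, above the floor on 1 of 3 AdCre arrays), neither of them steady (up to 0.0811). In the serine, glycine and ATF4 list of 22 genes Slc3a2, the heavy chain of amino acid transporters, rose (0.71 ± 0.16, adjusted p = 0.0301) and Phgdh, the entry enzyme of serine synthesis, fell (-0.54 ± 0.11, adjusted p = 0.0224), again not steady (up to 0.0935). Gpx3, a secreted glutathione peroxidase, rose (0.90 ± 0.16, adjusted p = 0.0133, steady) as the only call of 51 glutathione, peroxiredoxin and thioredoxin genes, and its AdLacZ arrays scattered from 86.8 to 160.2. In glycolysis and glucose uptake 1 of 21 genes fell, Pgk1, on a probe that lay below the floor on each AdCre array, against readings of 17.4 to 24.8 in AdLacZ cells (at least 1.3-fold lower, adjusted p = 0.00564).

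Signalling pathways held few calls. Of 10 Hedgehog genes Gli3, which acts mainly as the pathway's repressor in the limb, fell (-0.76 ± 0.15, adjusted p = 0.0218), with 36, 27.3 and 17.6 in AdCre cells, against 78.2, 62.4 and 57.4 in AdLacZ cells. It is also 1 of 3 falls among 29 limb patterning transcription factors (10.3% lower, 0 higher, median -0.07). Lhx9, which acts in outgrowth, fell on both probes (brighter -0.53 ± 0.09, adjusted p = 0.0138), with 122, 122 and 116 in AdCre cells, against 177, 179.6 and 204 in AdLacZ cells. Hand2, which sets up the posterior limb bud, fell by 0.47 ± 0.12 (adjusted p = 0.0464). None of these 3 calls was steady. Lhx9 ended only without AdLacZ replicate 3 (adjusted p = 0.0596), Gli3 in 4 fits (up to 0.0698) and Hand2 in 6 (up to 0.135). None of 26 Hox genes (median -0.10, with 18 negative changes) and none of 8 T-box genes (median -0.17) passed in limma, and of 25 forkhead genes Foxs1 rose (0.57 ± 0.11, adjusted p = 0.017, up to 0.0625).

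Among 51 FGF genes the effector Etv1 fell on both probes (brighter -0.79 ± 0.14, adjusted p = 0.013) and ended without AdLacZ replicate 2 (adjusted p = 0.0541), and the decoy receptor gene Fgfrl1 fell (-0.60 ± 0.12, adjusted p = 0.0182, up to 0.061), with 0 rises. In the Wnt list of 44 genes Wnt2 rose (0.57 ± 0.14, adjusted p = 0.0434) and the receptor gene Fzd4 fell on both probes (brighter -0.43 ± 0.11, adjusted p = 0.0493). In the BMP and TGF-beta list of 50 genes the activin subunit Inhbb rose (0.44 ± 0.11, adjusted p = 0.0485) and the receptor gene Acvr2b fell (-0.42 ± 0.10, adjusted p = 0.0408). These 4 passed in 1 or 2 of the 8 fits (adjusted p up to 0.165), and the untreated arrays of Acvr2b, at 369.8 and 428, lay with AdCre at 429, 414 and 373. Efna4, an ephrin ligand, was the only call of 18 ephrins and Eph receptors. It read 38.1, 58.1 and 55.6 in AdCre cells, against 191, 145 and 226 in AdLacZ cells and 253 and 172 in untreated cells, and fell on both probes, with log2 changes of -1.43 and -1.13 (brighter probe adjusted p = 0.0027, steady). No gene passed in limma among 25 Notch, 32 MAP kinase, 35 semaphorin, plexin and Robo-Slit or 32 IGF, PDGF, EGF and VEGF genes.

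Regulators of small GTPases and protein phosphatases held calls in both directions. Of 31 Ras and Rap regulators Rras rose (0.44 ± 0.09, adjusted p = 0.0229, up to 0.0889) and Rapgef6, an exchange factor for Rap, fell. Rapgef6 read 11.3, -0.794 and 3.55 in AdCre cells, against 122, 103 and 99.4 in AdLacZ cells and 103 and 141 in untreated cells, a steady call (-2.02 ± 0.15, adjusted p = 1.91e-04). Since 2 of its 3 AdCre arrays lay below the floor, the size depends on the background correction, at -3.49 without it and -1.33 with the offset of 50. Of 73 Rab and TBC genes Rab24 rose (0.39 ± 0.09, adjusted p = 0.0374, up to 0.125) and Tbc1d9 fell (-0.69 ± 0.10, adjusted p = 0.00526, steady), but not with its 2 probes averaged (-0.34, adjusted p = 0.117). Of 54 protein phosphatase subunits 4 fell and 1 rose. The falls were Ppp2r1b (-0.74 ± 0.12, steady), Ppp1cb on both probes (brighter -0.66 ± 0.12), Ppp2r3c (-0.84 ± 0.15) and a gene not named by the rule. The rise was that of Ppp1r14a, an inhibitor of myosin phosphatase, on both probes (brighter 0.67 ± 0.11, adjusted p = 0.00959, steady), with 119, 126 and 121 in AdCre cells, against 70.7, 55.7 and 72.5 in AdLacZ cells.

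**Figure D3:**
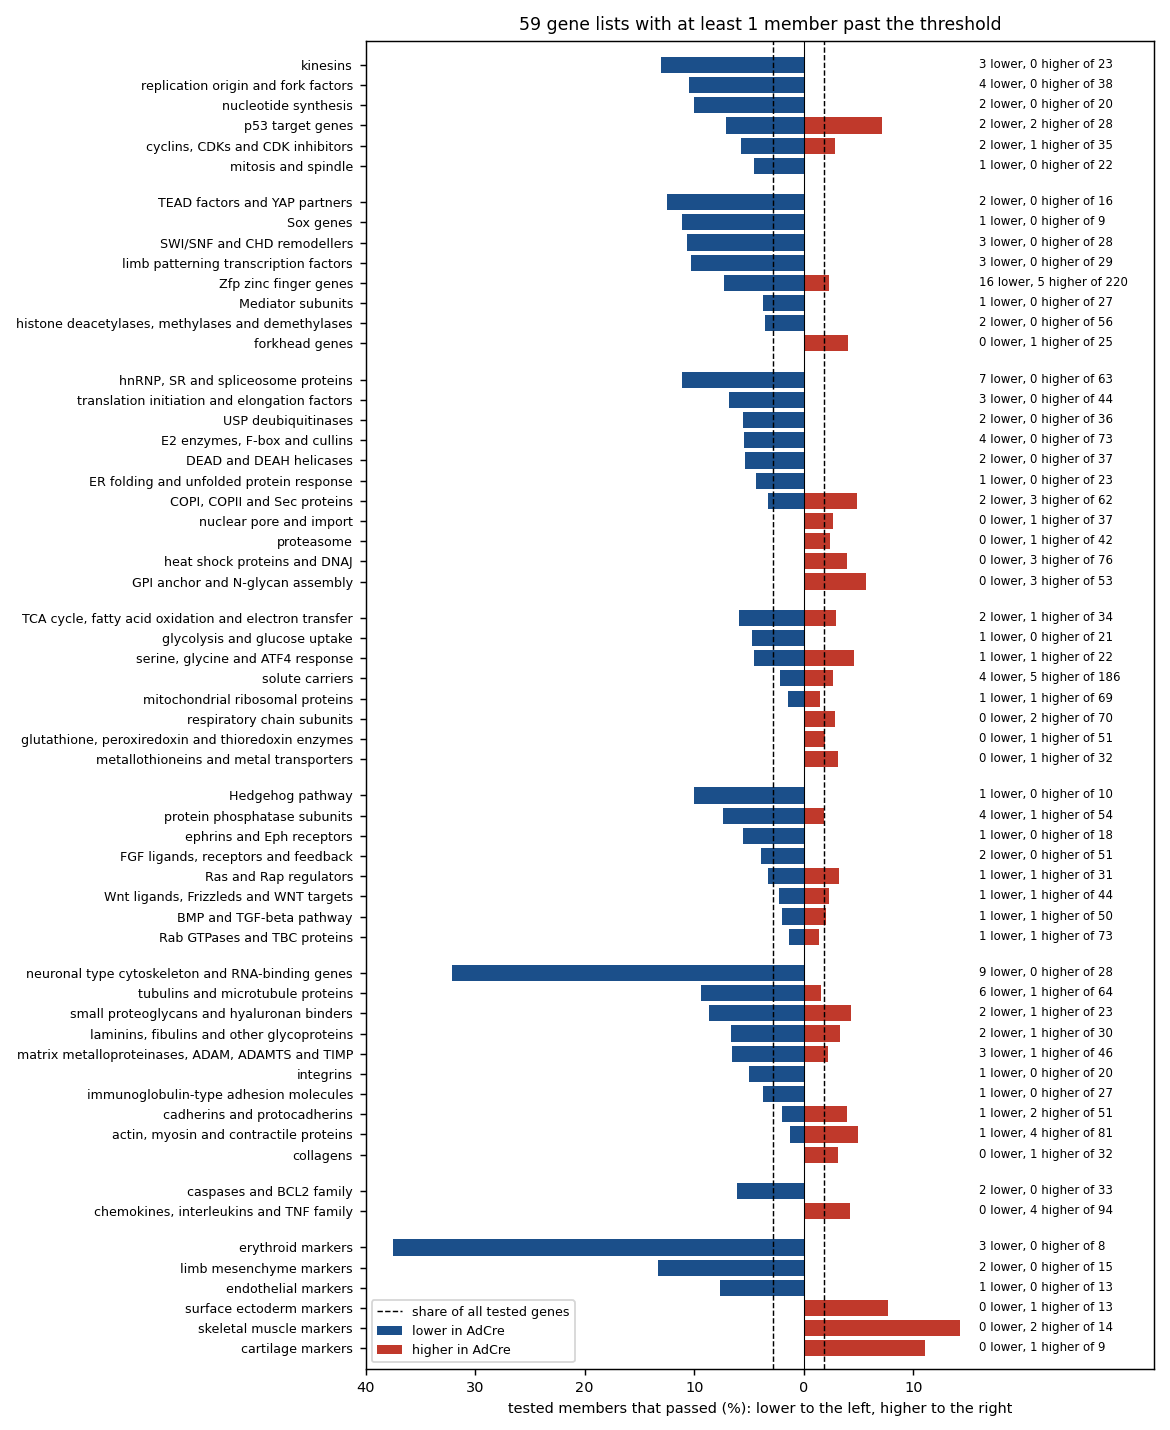
Share of tested members past the threshold (%) for 59 gene lists with at least 1 call, grouped by function, with lower genes to the left and higher genes to the right. Dashed lines mark the shares of all tested genes, 2.78% lower and 1.82% higher, and the neuronal type (32.1%) and erythroid (37.5%) lists extend farthest to the left.

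Extracellular matrix and adhesion genes showed opposite changes within families. Of 32 collagens only Col1a2, a chain of fibrillar collagen I, passed. It read 231, 212 and 235 in AdCre cells, against 134, 118 and 119.6 in AdLacZ cells and 228 and 210.4 in untreated cells, so AdLacZ was the low group (0.74 ± 0.10, adjusted p = 0.00372, steady). Of 23 small proteoglycans and hyaluronan binders Prelp rose and Gpc2 and Sdc1 fell (13% called, against 4.6%). Prelp, a leucine-rich matrix proteoglycan, read 29.4, 35.1 and 25.6 in AdCre cells and lay below the floor on each AdLacZ array, a rise of at least 1.55-fold (adjusted p = 0.00505). Gpc2, a glypican of the developing nervous system, lay below the floor on each AdCre array, against 46.8, 39.6 and 41 in AdLacZ cells, at least 1.87-fold lower (adjusted p = 0.00114). Sdc1, a cell-surface heparan sulfate proteoglycan, read 156, 119.5 and 155 in AdCre cells, against 278, 269 and 291 in AdLacZ cells (-0.84 ± 0.12, adjusted p = 0.00526). All 3 were steady.

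Of 30 laminins, fibulins and other glycoproteins Spon2 fell (-0.85 ± 0.09, adjusted p = 0.00178, steady), with 1892, 1783 and 1793 in AdCre cells, against 3113, 3389 and 3433 in AdLacZ cells. Fbln1 fell (-0.40 ± 0.10, adjusted p = 0.0397) and Matn4, a cartilage matrilin, rose (0.65 ± 0.16, adjusted p = 0.0446), passing in 2 and 1 of the 8 fits (up to 0.125 and 0.132). In 46 matrix proteases and their inhibitors Adamts7 (-0.76 ± 0.12, adjusted p = 0.0097, steady), Mmp11 (-0.64 ± 0.13, adjusted p = 0.0215) and Adamts4 (-0.47 ± 0.11, adjusted p = 0.0342) fell, and Timp3, an inhibitor of these enzymes, rose (0.41 ± 0.10, adjusted p = 0.0483). Mmp11, Adamts4 and Timp3 passed in 4, 2 and 0 of the 8 fits (up to 0.163). Itgav, an integrin chain, was the only call of 20 integrins (-0.37 ± 0.09, adjusted p = 0.0476) and passed in 0 fits. Of 51 cadherins and protocadherins Celsr1, of planar cell polarity (0.52 ± 0.11, adjusted p = 0.0222), and Pcdh1 (0.43 ± 0.10, adjusted p = 0.0374) rose and Pcdhb22 fell (-0.50 ± 0.10, adjusted p = 0.0189), none steady (up to 0.13). None of 25 collagen processing enzymes passed.

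A few contractile and muscle genes rose, each by less than 1 on the log2 scale. Of 81 actin, myosin and contractile genes 4 rose and 1 fell (4.94% higher and 1.23% lower, median 0.07). Des, the intermediate filament of muscle, read 2541, 2402 and 2324 in AdCre cells, against 1722, 1527 and 1729 in AdLacZ cells and 1324 and 1478 in untreated cells (0.54 ± 0.10, adjusted p = 0.0166). Acta1, skeletal alpha actin, read 6703, 6901 and 5879 in AdCre cells, against 4375, 4233 and 4640.4 in AdLacZ cells (0.55 ± 0.11, adjusted p = 0.0225). Actg2, smooth muscle gamma actin, rose by 0.61 ± 0.12 (adjusted p = 0.0174), and tropomyosin Tpm3 fell by 0.42 ± 0.10 (adjusted p = 0.0357). The 4 calls ended without 3 or more arrays each (adjusted p up to 0.112). Outside the lists, and named after their values were seen, the sarcomere protein gene Myom1 (0.75 ± 0.11, adjusted p = 0.00526, steady, but 0.30 on a dimmer probe) and the muscle enzymes Pgam2 (0.59 ± 0.10, adjusted p = 0.013) and Eno3 (0.47 ± 0.10, adjusted p = 0.0256) rose. So did the Popeye family genes Bves (0.55 ± 0.13, adjusted p = 0.0369) and Popdc3 (0.66 ± 0.12, adjusted p = 0.017). Pgam2 passed in 6, Popdc3 in 5, Eno3 in 2 and Bves in 0 of the 8 fits that left out an array. The summed intensity of 21 skeletal muscle markers was 43800 to 47200 units in AdCre cells, against 36800 to 40900 in AdLacZ cells, with Ckm, Lbx1, Met, Myf6, Pax3 and Pax7 not above the floor, and the part of muscle cell numbers in these rises was not tested. In bulk RNA, more cells of a type and more RNA per cell cannot be told apart.

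Markers of other cell types gave the following levels. Erythroid markers fell in 3 of 8 tested genes (37.5%), with a summed intensity of 1350 to 1930 in AdCre cells, against 4210 to 4770 in AdLacZ cells and more in untreated cells, at 7261 and 6140. Hba-a1, an alpha globin, read 724, 488 and 658 in AdCre cells, against 1686, 1740.5 and 1555 in AdLacZ cells (-1.39 ± 0.14, adjusted p = 0.00114). Hbb-y, an embryonic beta globin, fell on both probes (brighter -1.46 ± 0.14, adjusted p = 0.00114), and the embryonic Hba-x fell by 1.05 ± 0.16 (adjusted p = 0.00705), all steady. Alas2, Gata1 and 4 further erythroid markers were not above the floor. Surface ectoderm markers summed to 2540 to 2870 in AdCre cells, against 1950 to 2220 in AdLacZ cells, with 11 of 13 changes positive, Krt19 as the only call (0.45 ± 0.11, adjusted p = 0.0444, in 0 of the 8 fits) and Krt5, Esrp1, Grhl2 and 3 others not above the floor. Endothelial markers summed to 1980 to 2110, against 1660 to 1820 in AdLacZ cells, and only Mmrn2 passed, as a fall near the floor (-0.67 ± 0.13, adjusted p = 0.0173). Macrophage markers gave 1220 to 1290, against 1370 to 1540 in AdLacZ cells, with 0 of 16 called and Ptprc not above the floor. Cartilage markers gave 692 to 732, against 779 to 866 in AdLacZ cells, and limb mesenchyme markers gave 2970 to 3470, against 3400 to 3560 in AdLacZ cells. All 15 mesenchyme markers with a probe passed the filter on dim probes. The part of cell composition in the changes above was not tested.

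Survival and immune genes held few calls. Of 33 caspases and BCL2 family genes 2 fell and 0 rose. Casp6, an executioner caspase, read 209, 152 and 203 in AdCre cells, against 402, 414 and 393 in AdLacZ cells and 352 and 354 in untreated cells, and fell on both probes (brighter -1.002 ± 0.12, adjusted p = 0.00238, steady). Casp2 fell by 0.48 ± 0.10 (adjusted p = 0.0219), in 3 of the 8 fits (up to 0.076). Of 94 chemokine, interleukin and TNF family genes Il11 (0.59 ± 0.13), the interleukin 1 antagonist Il1rn (0.58 ± 0.13), Il10rb (0.58 ± 0.14) and Ccl17 (0.51 ± 0.13) rose and 0 fell (4.26% higher), at adjusted p values of 0.0301 to 0.0464. Il1rn was above the floor on 1 of 3 AdLacZ arrays, and none of the 4 was steady (up to 0.132). No interferon-induced gene of 44 passed in limma (median -0.09, 30 negative). In the fit on the 6 virus-treated arrays alone 2 of them fell, both named after their values were seen. The RNA sensor gene Ddx58 read 114, 137 and 143 in AdCre cells, against 208, 226 and 192 in AdLacZ cells and 37.7 and 70.5 in untreated cells (-0.57, adjusted p = 0.0244 on 6 arrays and 0.0516 on 8). The chemokine gene Cxcl10 read 434, 364 and 389 in AdCre cells, against 545, 557 and 589 in AdLacZ cells and 161 and 264 in untreated cells (-0.48, adjusted p = 0.0301 on 6 arrays and 0.0873 on 8). For these genes the untreated arrays differed from each other by more than the virus-treated replicates did.

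**Figure D4:**
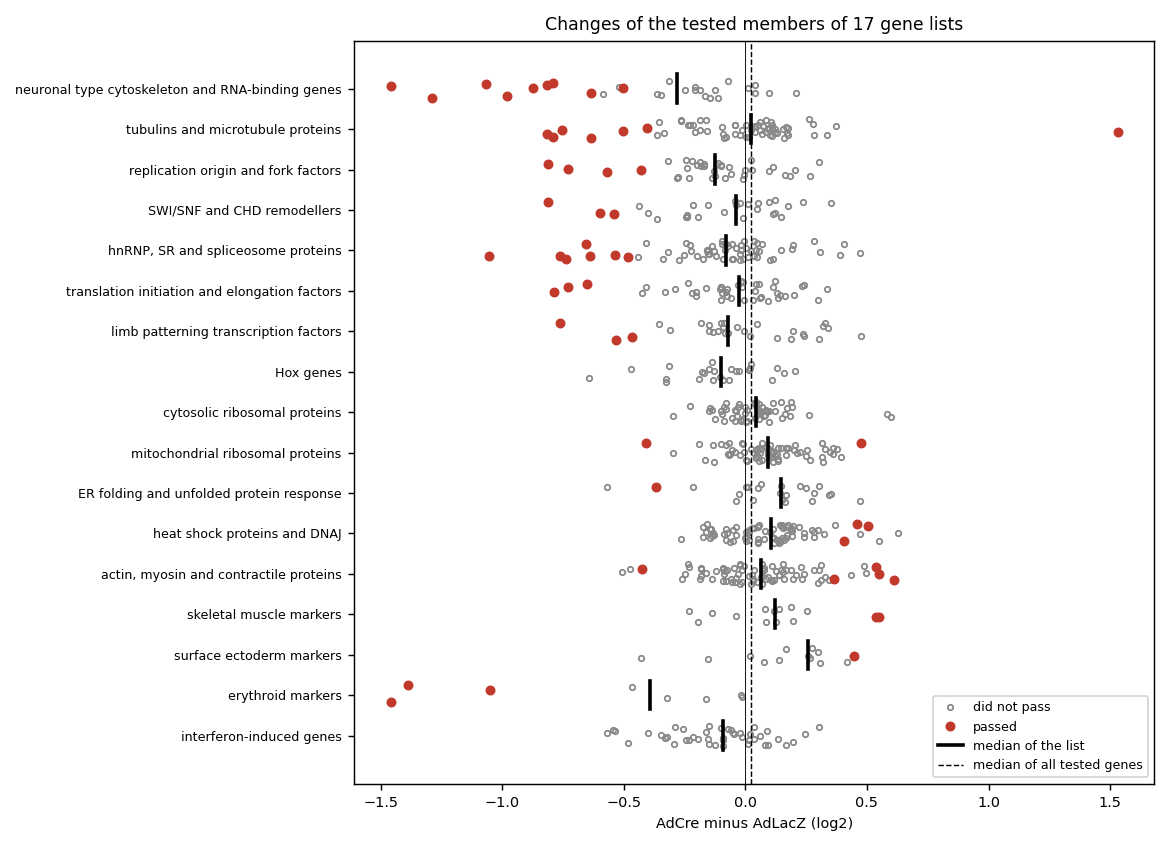
AdCre minus AdLacZ change (log2) of each tested member of 17 gene lists, with members past the threshold filled, the median of each list as a bar and the median of all tested genes as a dashed line. The neuronal type list has its median at -0.28 and the erythroid list at -0.39, while cytosolic ribosomal proteins centre at 0.04 with no call.

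Of 2926 genes with at least 2 tested probes the brightest probe passed in 178, and in 46 of these every probe passed in 1 direction (5 higher and 41 lower). All probes shared a sign in 78.1% of the 178, against 52.1% of the genes that were not called, and 39 of the 178 had a probe of the other sign. No gene had probes that passed in opposite directions. With probes averaged per gene, 20 of the 52 named calls with several probes did not pass. Beyond those already given these were Alg11, Dcxr, Dnajb4, Fbln1, Kif3c, Mrps5, Ndufv3, Pcdh1, Rab24, Slc14a1, Timp3, Tpm3, Trp53inp1 and Ube2z, whose averaged changes had sizes under 0.5 on the log2 scale. A further 6 passed at a size more than 1.5 times smaller, among them Dpysl4 (-0.62), Hnrnpk (-0.46), Sdc1 (-0.42) and Slc16a6 (0.54). Besides the genes above, Tmem98, a membrane protein gene, read 194, 210.2 and 232 in AdCre cells, against 415, 503 and 378 in AdLacZ cells (brighter probe -0.93 ± 0.12, adjusted p = 0.00336). The ARF GTPase activator gene Asap2 (-0.77 ± 0.12, adjusted p = 0.00984) and Nsmaf, an adaptor of sphingomyelinase signalling (-0.63 ± 0.09, adjusted p = 0.00526), fell on both probes. Anxa8, an annexin, rose on both (brighter 0.64 ± 0.11, adjusted p = 0.0119). These 4 were steady.

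**Figure D5:**
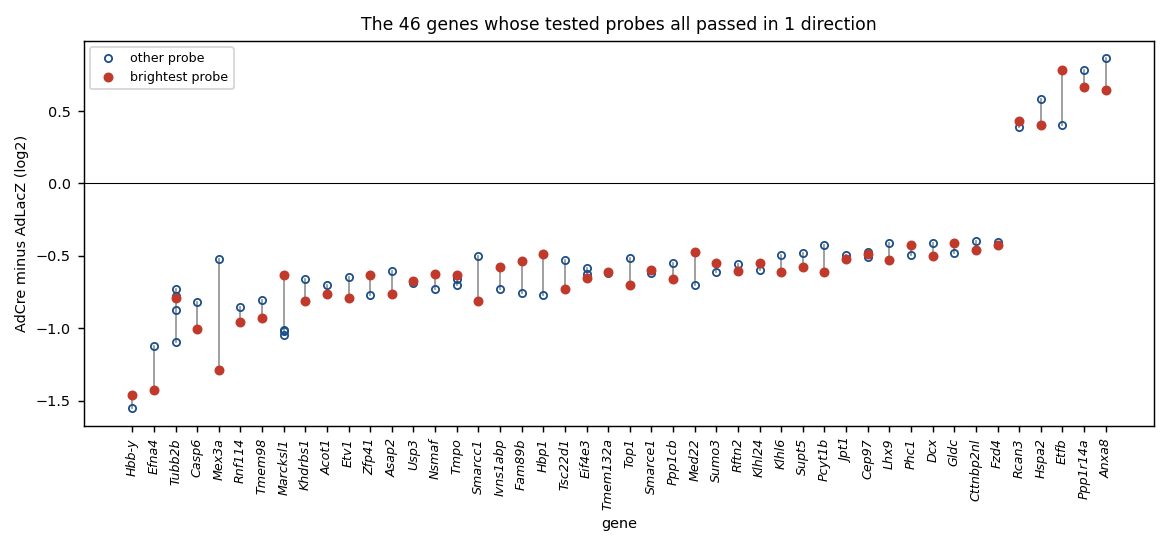
AdCre minus AdLacZ change (log2) of every tested probe of the 46 genes whose probes all passed in 1 direction, with the brightest probe filled and the others open. In 41 genes all probes lie below 0 and in 5 all lie above, and Tubb2b spans -1.09 to -0.73 over 5 probes.

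Some of the largest changes lay outside the lists. Zcchc18 on the X chromosome read 119.8, 105 and 92.4 in AdCre cells, against 346, 371 and 349 in AdLacZ cells and 352 and 332 in untreated cells (-1.51 ± 0.10, adjusted p = 1.68e-04). The kinase gene Sbk1 read 686, 637 and 551 in AdCre cells, against 1648, 1773 and 1830.0 in AdLacZ cells (-1.45 ± 0.13, adjusted p = 7.19e-04). Among rises, the synaptic scaffold gene Dlg4 read 53.9, 40.5 and 32.6 in AdCre cells, against 9.17, 9.32 and 12.9 in AdLacZ cells (0.83 ± 0.12, adjusted p = 0.00564). Its AdLacZ readings lay near the floor, where the background correction shrinks changes. Ydjc rose by 0.81 ± 0.12 (adjusted p = 0.00569). All 4 were steady. A further 41 probes without a single gene name passed, 16 higher and 25 lower, and are not described.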

How the data were processed

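RNA from 8 samples was labelled as biotinylated cRNA and hybridised to Illumina bead arrays, per the labels' protocols, and BeadStudio 2.1 is named in the submitters' processing notes. The deposited intensities are the authors' values: background-subtracted, on a linear scale, with 25.7% below 0 and with arrays that differ by at most 0.19 units at any rank. How they were scaled is not given in the sources used here. A further 32 per-sample columns that could not be tied to a sample were not used.

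Values were corrected by normexp with an offset of 16, taken to log2 and tested with limma 3.58.1 in R 4.3.3 (lmFit and eBayes, Benjamini-Hochberg adjustment) in a fit of 3 groups on 8 arrays, which leaves 5 residual degrees of freedom. The detection floor of an array is 1.645 times the background SD, estimated from its negative values. Intensities carry no counts, and precision is limited by how many arrays there are, with a median SE of 0.119 for a log2 change. Groups that lay wholly below the floor are given as at-least folds against the floor. The script was tested on simulated data.

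Of the probes, 23978 had 1 gene symbol and 1719 had none or several. A gene was represented by its brightest tested probe. Named genes are the Sox genes, the 10 largest non-overlapping rises and falls, up to 4 called members of each of 82 lists, and 12 genes whose probes all passed 1 way. The members, lists and tests were chosen with earlier results of these data known. Promoter windows came from RefSeq (GRCm38.p6), where 8696 of 10772 tested genes had one. Alternatives varied the background correction, normalization, filter, weights, prior, samples, block, probe summary and moderation. Figures were drawn with matplotlib 3.10.9. The result of 1 gene list is not reported here.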

Additional observations from a re-analysis of the deposited data

How the results depend on the processing

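The number of calls depended on the setting. All 145 named calls kept their sign under the 19 alternative settings, and 43 of them passed in every one. Most of these settings could not reverse a sign. The groups of called probes did not overlap, so leaving out an array keeps the sign. Settings of filter, prior, block and moderation leave the change itself as it was. The median change over all probes moved by less than 0.1 on the log2 scale. The main fit called 802 probes, 253 higher and 549 lower. The count was 503 without normexp (151 higher and 352 lower), 1420 with an offset of 50 (588 and 832), 406 without a filter on dim probes (107 and 299), 1432 with a trended and robust prior (582 and 850) and 314 in the ordinary test without moderation (108 and 206). It was 514 genes (213 and 301) with probes averaged per gene. It was 1166 with a filter that asked for all arrays of a virus-treated group (444 and 722) and 1203 with array weights (460 and 743). Lower probes were 68.5% of calls in the main fit and 58.6% with the offset of 50. With 1 array left out the count ran between 192, without AdLacZ replicate 2, and 774, with 51 to 252 higher and 141 to 522 lower. It was 774 without either untreated array, as in the fit on the 6 virus-treated arrays. The left-out settings had fewer samples, and for the others the cause was not tested. The labels do not state whether same-numbered AdCre and AdLacZ arrays belong together. Their deviations correlated at 0.0225, -0.0014 and -0.0569, against -0.0601 to 0.0562 for differently numbered arrays. Deviations from the mean of so few arrays are tied to each other, so these values cannot show whether the arrays were paired. With the replicate numbers as a replicate block the count was 425 (109 higher and 316 lower). Of dim genes little can be said, since 1.71% passed in the dimmest of 4 equal bins of brightness, against 6.94% in the third bin.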

Other observations

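Polycomb group genes, which keep developmental genes silent, were grouped after their values were seen. Of 21 tested genes 5 were lower in AdCre cells and 0 higher (23.8% lower, against 2.78% of all genes, median -0.12). A list made in this way is no independent support. Besides Ezh2 these were Cbx2 (-0.67 ± 0.14, adjusted p = 0.0269 in limma), Mtf2 (-0.63 ± 0.14, adjusted p = 0.0275), Rbbp7 (-0.52 ± 0.11, adjusted p = 0.0229) and Phc1 (-0.42 ± 0.10, adjusted p = 0.0341). With 1 array left out Mtf2 passed in 4 and Cbx2, Rbbp7 and Phc1 in 2 of the 8 fits. A dimmer Rbbp7 probe stood at -0.01 ± 0.15. L3mbtl3, a related reader of methylated histones that was not on that list, read 279, 270.1 and 273 in AdCre cells, against 508, 459 and 431 in AdLacZ cells (-0.70 ± 0.10, adjusted p = 0.00595). Only this probe of its 3 passed, and the smallest fall among them was -0.22.

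Cxadr, the receptor that adenovirus uses to enter cells, read 132, 162 and 146 on its brightest probe in AdCre cells, against 195, 217 and 214 in AdLacZ cells and 233 and 163 in untreated cells (-0.44 ± 0.13, adjusted p = 0.0765 in limma). Of 2 dimmer probes 1 passed (-0.72 ± 0.18, adjusted p = 0.0426) and the other did not (-0.11 ± 0.13, adjusted p = 0.671).

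Of 359 tested genes on the X chromosome 16 were lower and 1 was higher, so 4.74% passed, against 4.6% of all genes. Among all 10772 tested genes 300 were lower (2.78%) and 196 higher (1.82%), so the calls on the X leaned further to lower genes. The median genomic span was 13175 bases in 195 higher genes, 23426 in 300 lower genes and 21438 in genes that did not pass. These values were not tested.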
